A study of Mus musculus with 6 samples.

Results

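The 10 genes described here are the chains, kinases, transcription factor and response genes of the IL-4 receptor, together with *Il21r*, a receptor chain that shares a partner with it. They are *Il4ra*, *Il2rg*, *Il21r*, *Jak1*, *Jak3*, *Stat6*, *Fcer2a*, *Socs1*, *Socs3* and *Cish*. They were taken by symbol from the 24499 genes of the count table, by their known roles and by no cutoff on their values, and 10 of 10 were among the 13296 genes with enough counts to be tested. IL-4 binds the IL-4Rα chain, which pairs with the common γ chain. The kinases JAK1 and JAK3, bound to these chains, then phosphorylate STAT6, a transcription factor that enters the nucleus and turns on genes such as that of CD23 in B cells. SOCS1, SOCS3 and CIS are induced by cytokine signals and restrain the receptors and kinases in return.

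RNA-seq was performed on iGCBs, germinal center–like B cells grown in culture, with 3 libraries from cKO and 3 from control mice. Naïve splenic B cells grew until day 3 under 1 ng/ml IL-4 on 40LB cells, a 3T3 fibroblast line that expresses CD40L and BAFF and was irradiated with 120 Gy, and YFP+ cells were sorted. The cKO mice were Eif3e fl/fl Cγ1Cre Rosa26-YFP LSL and lose eIF3e, a subunit of translation initiation factor eIF3, and the control mice were Cγ1Cre Rosa26-YFP LSL. Both groups therefore carried the Cre and the YFP reporter, both were exposed to IL-4, and no library without IL-4 was analysed here. Cγ1Cre is switched on with transcription of the Ig γ1 constant region in activated B cells, so deletion follows activation, and IL-4 itself promotes that transcription. The mice were on the C57BL/6J background, and the libraries are described as biological replicates. Whether each came from 1 mouse or from pooled mice, and the age of the mice, were not given in the sources used here, so p-values measure the spread between these libraries.

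Totals ranged from 39079582 to 45504570 estimated counts per library, and 3 counts, taken as the smallest detectable level, amount to 0.0659 to 0.0768 CPM, which are counts relative to each library's total after edgeR's TMM adjustment. *Eif3e* fell to 158 ± 13.1 from 406 ± 16.5 CPM (SD, n = 3 libraries each), a log2 fold change of −1.36 (SE 0.0657, adjusted p = 6.71e-07 by edgeR's quasi-likelihood test). B cell markers summed to between 4463 and 4619 CPM in cKO and between 4330 and 4686 CPM in control libraries. Of 10 fibroblast markers, *Lum* and *Postn* were at 0 in every library, and the sum was between 104 and 130 CPM in cKO and between 78.3 and 144 CPM in control. Of the 7 fibroblast markers tested, 2 rose (*Col5a1* and *Fn1*) and 5 were not called, with log2 fold changes from −1.07 to −0.22, and the median of the list was −0.30. The 6 T cell markers summed to between 23.3 and 25.7 CPM in cKO and between 36.5 and 39.7 CPM in control, nearly all from *Lck*, with *Cd3e* at 0 in every library, and the 6 macrophage markers to between 12.8 and 14.0 CPM in cKO and between 10.3 and 12.9 CPM in control. Of the 4 macrophage markers tested, *Adgre1* rose from 1.18 ± 0.735 CPM in control to 4.61 ± 0.953 CPM in cKO (SD, n = 3; adjusted p = 0.00203, edgeR), and the other 3 were not called, with log2 fold changes of −0.32 for *Cd68*, the most abundant, −1.08 for *Itgam* and 0.75 for *Mrc1*. *Csf1r* was at no more than 4 counts in any library. The part of these cells in the results was not tested. *Xist* was detected at high level in 1 of 3 cKO and 2 of 3 control libraries, and genes of the Y chromosome in the others, so sex was not balanced between the groups.

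In cKO iGCBs, 6 of the 10 genes rose, 3 fell and 1 did not pass the test. The increases were those of the inhibitor genes *Socs3*, *Cish* and *Socs1*, of the receptor chains *Il21r* and *Il2rg*, and of *Stat6*. The kinase genes *Jak3* and *Jak1* and the CD23 gene *Fcer2a* fell. Past a fold change of 1.5, 3 genes were higher (*Socs3*, *Cish* and *Il21r*) and 1 was lower (*Jak3*). A call here is an adjusted p under 0.05 over all genes tested. By that rule 24.1% of all genes were higher and 24.5% lower in cKO, and with the 1.5-fold cutoff 10.4% were higher and 10.6% lower. The median log2 fold change of the 10 genes was 0.27, beside −0.004 for all genes tested. In 9 of 10 genes the 3 cKO libraries did not overlap the 3 control libraries, as in 58.7% of all genes tested. For a single gene, 3 libraries against 3 cannot give a two-sided exact permutation p below 0.1.

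**Figure D1:**
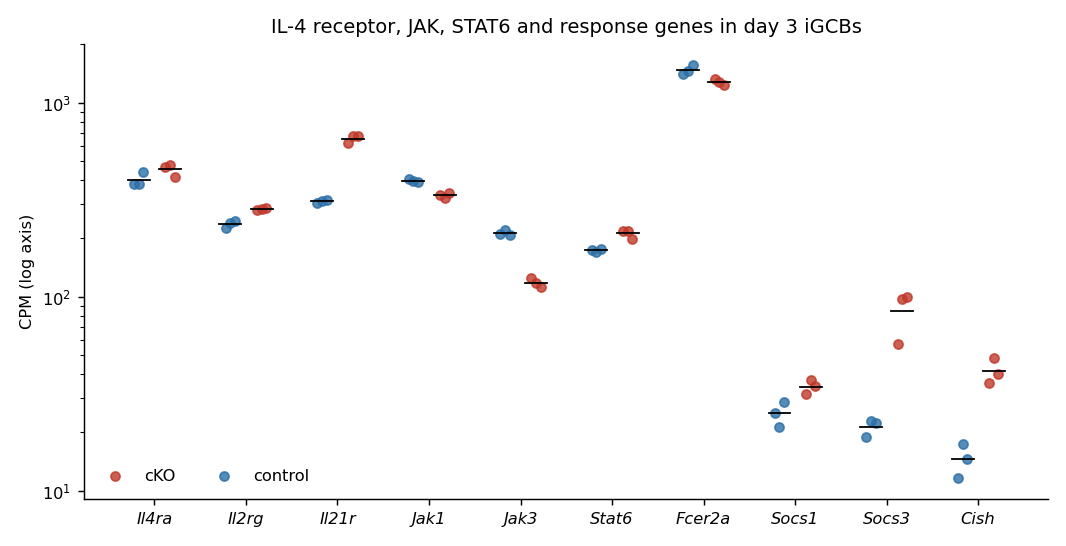
CPM of the 10 genes on a log axis in each cKO (red) and control (blue) library, with 1 point per library and a black line at the mean of 3. The groups overlap for *Il4ra*, and the widest gaps are those of *Socs3*, *Cish*, *Il21r* and *Jak3*.

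*Il4ra* encodes the chain that binds IL-4. It was measured at 466, 478 and 416 CPM in cKO and at 383, 381 and 442 CPM in control replicates 1, 2 and 3. One control library lay above the lowest cKO library, so the groups overlapped. The log2 fold change was 0.17 (95% interval 0.01 to 0.34, SE 0.0734), with an adjusted p of 0.0743 by edgeR's quasi-likelihood test, and *Il4ra* was not called. Its exons share 571 bases with *Gm44876* on the opposite strand. It was called by DESeq2 (adjusted p = 0.0284), with genes kept only at 10 or more counts in every library (0.0492 by edgeR), without cKO replicate 3 (0.0291 by edgeR) and without control replicate 3 (0.0126 by edgeR).

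*Il2rg* encodes the common γ chain, shared by the receptors for IL-2, IL-4, IL-7, IL-9, IL-15 and IL-21. Its levels were 282, 285 and 287 CPM in cKO and 227, 239 and 247 CPM in control replicates. All cKO libraries were above all control libraries, by a small margin. The log2 fold change was 0.26 (SE 0.0488, adjusted p = 0.00153, edgeR). *Il2rg* shares 728 exonic bases with *Gm20489* on the same strand. It lies on chromosome X, and the log2 difference was 0.29 between libraries with *Xist* and 0.20 between libraries with Y chromosome genes.

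*Il21r* encodes the chain that pairs with the common γ chain to bind IL-21, the cytokine of follicular helper T cells. It was measured at 619, 670 and 671 CPM in cKO and at 305, 311 and 317 CPM in control replicates. The cKO libraries were thus far above the control libraries. *Il21r* rose 2.10-fold (log2 fold change 1.07, SE 0.0507, adjusted p = 6.57e-07, edgeR). It lies on the same strand as *Il4ra*, with 23778 bases between the end of *Il4ra* and its start. In GRCm38.p6, *Il4ra* spans 125552271 to 125579474 and *Il21r* spans 125603252 to 125634397 on the plus strand of chromosome 7.

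The kinase genes moved the other way. *Jak3*, whose product binds the common γ chain, was measured at 125, 118 and 112 CPM in cKO and at 210, 221 and 208 CPM in control replicates. Every cKO library was well below every control library, and *Jak3* was 1.80-fold lower (log2 fold change −0.85, SE 0.0571, adjusted p = 2.90e-06, edgeR). *Jak1*, whose product serves many cytokine receptors including IL-4Rα, was measured at 335, 324 and 344 CPM in cKO and at 403, 397 and 388 CPM in control replicates. The groups did not overlap, and the log2 fold change was −0.25 (95% interval −0.35 to −0.14, SE 0.0473, adjusted p = 0.00164, edgeR), beside an interval of −0.98 to −0.72 for *Jak3*. *Jak3* shares 404 exonic bases with *Insl3* on the same strand, a gene with between 34 and 78 counts per library.

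*Stat6*, the transcription factor of the IL-4 receptor, was measured at 219, 219 and 199 CPM in cKO and at 175, 170 and 177 CPM in control replicates. The 3 cKO libraries were above the 3 control libraries. The log2 fold change was 0.29 (SE 0.0530, adjusted p = 0.00129, edgeR). Its exons share 40 bases with *Nab2* on the opposite strand, a gene with between 1239 and 4577 counts per library.

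*Fcer2a* encodes CD23, the low-affinity IgE receptor and a surface marker that IL-4 raises on B cells. It was the most abundant of the 10 genes, at 1319, 1286 and 1230 CPM in cKO and 1410, 1450 and 1571 CPM in control replicates. The cKO libraries were lower without overlap. The log2 fold change was −0.21 (SE 0.0491, adjusted p = 0.00545, edgeR).

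*Socs3* had the largest change of the 10 genes. Its product inhibits JAK kinases at receptors such as those of the gp130 family. It was measured at 57.2, 97.3 and 99.4 CPM in cKO and at 19.1, 22.9 and 22.3 CPM in control replicates. The cKO replicate 1 was lower than the other cKO libraries and still above each control library. *Socs3* rose 3.95-fold (log2 fold change 1.98, 95% interval 1.57 to 2.40, SE 0.186, adjusted p = 1.83e-05, edgeR), and the log2 fold change was between 1.85 and 2.20 with each library left out in turn.

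*Cish* encodes CIS, a target and an inhibitor of STAT5 signaling. Its levels were 36.0, 48.4 and 39.9 CPM in cKO and 11.6, 17.5 and 14.5 CPM in control replicates. The groups were well apart. *Cish* rose 2.85-fold (log2 fold change 1.51, 95% interval 1.17 to 1.86, SE 0.156, adjusted p = 3.27e-05, edgeR). In the annotation it shares 479 and 261 exonic bases with *Gm17041* and *Gm17040* on the opposite strand, and the strand setting of the counting is not given in the sources used here, so reads of these genes cannot be told apart.

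*Socs1* encodes an inhibitor that binds JAK kinases directly and is known as a brake on IL-4 and interferon signaling. It was measured at 31.4, 37.2 and 34.8 CPM in cKO and at 25.3, 21.3 and 28.7 CPM in control replicates. The groups did not overlap, with the highest control library close to the lowest cKO library. The log2 fold change was 0.46 (SE 0.117, adjusted p = 0.00870, edgeR), and it was below 1.5-fold.

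**Figure D2:**
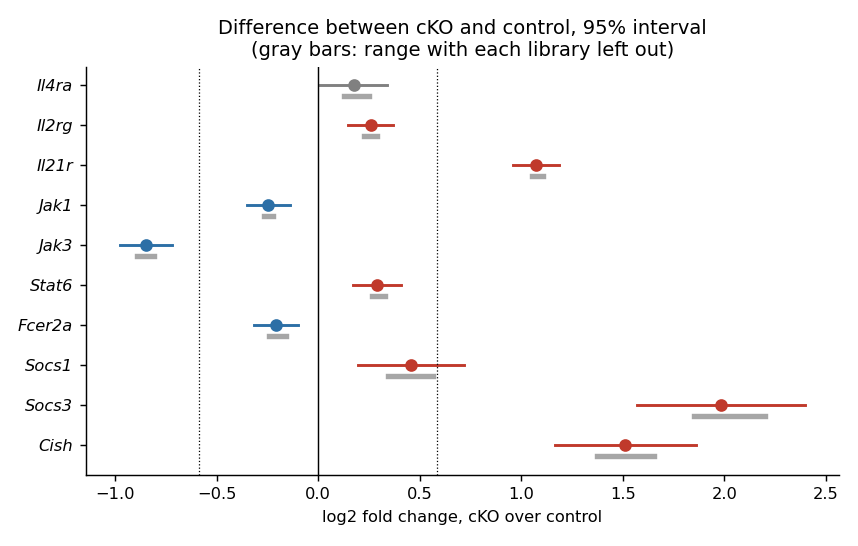
Log2 fold change of cKO over control for each gene (points) with its 95% interval (lines) from edgeR, in red where higher, blue where lower and gray where not called. Dotted lines mark a fold change of 1.5, and thick gray bars give the range with each library left out in turn, which stays on 1 side of 0 for every gene.

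The directions of 9 of the 10 genes were the same between libraries with *Xist* (1 cKO, 2 control) and between libraries with Y chromosome genes (2 cKO, 1 control). These 9 were the genes whose groups did not overlap, so their agreement was fixed in advance and is no separate check on sex. The log2 differences were 2.22 and 1.76 for *Socs3*, 1.76 and 1.38 for *Cish*, 1.12 and 1.02 for *Il21r*, and −0.87 and −0.82 for *Jak3*. For *Il4ra* they were 0.32 and −0.005. Fewer cells with a transcript and less of it per cell cannot be told apart in these bulk libraries.

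STAT dimers bind DNA at TTC and GAA half-sites, and STAT5 is known to bind sites with a spacer of 3 bases whereas STAT6 prefers a spacer of 4. The RefSeq promoter windows, 250 bases before to 50 bases after a start site on GRCm38.p6, were searched for both spacings, TTCNNNGAA and TTCNNNNGAA, which read the same on both strands. The windows of *Cish* and *Socs3*, the genes with the largest increases, are shown because they hold the shorter spacing, marked in capitals. The *Cish* window is chr9:107296409-107296708 on the plus strand and the *Socs3* window is chr11:117969317-117969616 on the minus strand.
Cish: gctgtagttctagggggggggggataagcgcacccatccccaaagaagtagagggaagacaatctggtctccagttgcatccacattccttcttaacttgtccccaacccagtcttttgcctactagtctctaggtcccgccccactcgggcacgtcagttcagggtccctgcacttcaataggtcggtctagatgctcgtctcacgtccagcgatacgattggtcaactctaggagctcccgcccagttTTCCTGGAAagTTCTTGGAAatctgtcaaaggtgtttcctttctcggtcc
Socs3: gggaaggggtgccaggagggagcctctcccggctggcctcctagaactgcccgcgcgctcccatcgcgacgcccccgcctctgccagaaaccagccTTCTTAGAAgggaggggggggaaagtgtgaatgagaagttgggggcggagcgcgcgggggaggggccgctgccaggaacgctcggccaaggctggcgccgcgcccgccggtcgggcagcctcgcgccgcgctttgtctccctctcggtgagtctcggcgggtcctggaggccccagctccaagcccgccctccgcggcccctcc
The *Cish* window holds TTCCTGGAA at bases 0 to 8 and TTCTTGGAA at bases 11 to 19, counted from the start site as 0. The *Socs3* window holds TTCTTAGAA at −154 to −146. These positions count from RefSeq start sites, 107296659 for *Cish* and 117969366 for *Socs3*. The matched GENCODE M21 transcripts start at 107296026 (NM_009895) and 107296710 (NM_001317354) for *Cish* and at 117969186 for *Socs3*. Distances to the start therefore depend on the annotation. The matches do not overlap. TTCNNNGAA was present in 2 of the 12 windows of the 10 genes and in 8.30% of 32851 windows of all genes. TTCNNNNGAA was present in 1 of the 12, a second *Fcer2a* window, and in 6.95% of all windows. It was not in the window of the start used by the main *Fcer2a* transcript. A match describes the letters only.

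To order the genes by level, the CPM of each gene were split by the transcripts' shares of its counts, divided by the exon length of the matched GENCODE M21 transcript and summed. In control iGCBs the order was *Fcer2a* (714 CPM per kb), *Il2rg* (143), *Il21r* (124), *Jak1* (80.8), *Il4ra* (76.5), *Jak3* (53.1), *Stat6* (46.1), *Socs1* (8.84), *Socs3* (8.39) and *Cish* (5.20). The libraries of *Jak1* and *Il4ra* overlapped, as did those of *Socs1* and *Socs3*. In cKO the order was *Fcer2a* (611 CPM per kb), *Il21r* (262), *Il2rg* (170), *Il4ra* (86.3), *Jak1* (68.1), *Stat6* (56.2), *Socs3* (33.2), *Jak3* (29.5), *Cish* (14.8) and *Socs1* (12.1). Here *Socs3* overlapped *Jak3* and *Cish* overlapped *Socs1*. In control iGCBs *Jak3* was above *Stat6* and far above *Socs3*, and in cKO it was below *Stat6* and level with *Socs3*. *Socs1* may be understated, because its annotated exons are longer than its RefSeq gene of 1729 bases. The exon length used for *Cish* may also differ from RefSeq. Its GENCODE match for NM_009895 starts at 107296026, before the RefSeq gene at 107296659.

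The table of RefSeq transcripts held 20 transcripts of the 10 genes, of which 19 were tested. In cKO, 7 were higher and 5 were lower, beside 12.4% and 12.7% of all transcripts tested. For 5 genes a single transcript was listed. For the others the split between transcripts is an estimate of StringTie from shared reads.

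For *Socs1*, NM_001271603 was measured at 21.6, 21.9 and 19.97 CPM in cKO and at 12.2, 10.5 and 12.5 CPM in control replicates. NM_009896 was measured at 9.75, 15.2 and 14.9 CPM in cKO and at 13.1, 10.9 and 16.2 CPM in control replicates. The first was higher in every cKO library, with a log2 fold change of 0.85 (SE 0.118, adjusted p = 0.00490, edgeR), and the second overlapped, at −0.01 (95% interval −0.61 to 0.58, adjusted p = 0.979, edgeR). The share of the first was between 57.2% and 68.9% in cKO and between 43.5% and 49.0% in control. The change in transcript use was not called for *Socs1* (adjusted p = 0.228, edgeR's diffSpliceDGE over 2990 genes, of which 3.28% were called).

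Both transcripts of *Cish* rose. NM_009895 had a log2 fold change of 1.74 (adjusted p = 0.00129, edgeR) and NM_001317354 of 1.23 (adjusted p = 0.0428, edgeR). The second lost its call without cKO replicate 1 (0.0862 by edgeR), 2 (0.121) or 3 (0.0605), or without control replicate 1 (0.103) or 3 (0.116). For *Jak3*, NM_010589 fell (log2 fold change −0.81, adjusted p = 0.00466, edgeR), and NM_001190830, at 40.3, 26.2 and 18.0 CPM in cKO and 70.9, 70.6 and 24.1 CPM in control replicates, was not called (−0.97, adjusted p = 0.221, edgeR). Transcript use of *Cish*, *Jak3* and *Il2rg* was not called (adjusted p = 0.632, 0.940 and 0.425, diffSpliceDGE).

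*Fcer2a* was the 1 gene of the 5 with a called change in transcript use (adjusted p = 0.00620, diffSpliceDGE). Its main transcript NM_013517 held between 93.4% and 95.3% of the counts in every library and fell (log2 fold change −0.20, adjusted p = 0.0218, edgeR), as did 2 minor ones, NM_001253747 (−0.85, adjusted p = 0.0365, edgeR) and NM_001253745 (−1.10, adjusted p = 0.0361, edgeR). The minor transcripts NM_001253737 and NM_001253739 were higher in each cKO than in each control library and were not called, with log2 fold changes of 2.78 and 1.14 (adjusted p = 0.0867 and 0.0609, edgeR). NM_001253739 was called with features kept only at 10 or more counts in every library (adjusted p = 0.0319, edgeR). NM_001253737 was measured at 11.2, 3.04 and 10.2 CPM in cKO and at 0.244, 2.44 and 0.873 CPM in control replicates. Removal of any 1 library gave log2 fold changes between 2.29 and 3.86, the highest without control replicate 2. The call on transcript use was lost without cKO replicate 1 (adjusted p = 0.0545), cKO replicate 3 (0.0572) or control replicate 3 (0.0653), and the cause was not tested. Each of the 3 calls of lower *Fcer2a* transcripts was lost with some library left out, at adjusted p-values of up to 0.114 by edgeR.

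**Figure D3:**
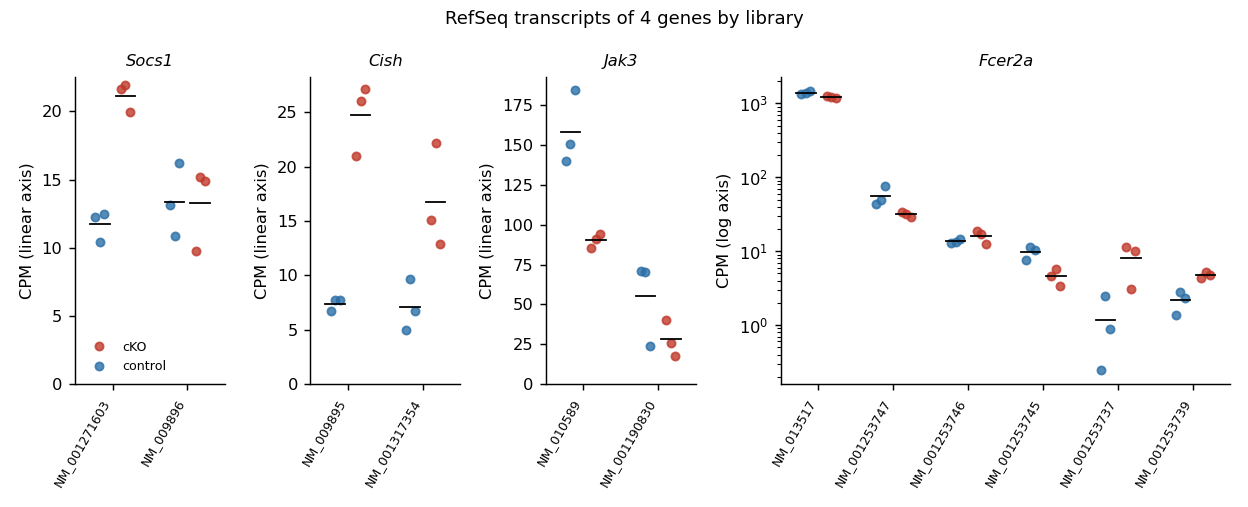
CPM of the tested RefSeq transcripts of *Socs1*, *Cish*, *Jak3* and *Fcer2a* in each cKO (red) and control (blue) library, with a black line at the mean of 3. The axis is linear from 0 for the first 3 genes and logarithmic for *Fcer2a*. The groups are apart for NM_001271603 of *Socs1* and overlap for NM_009896.

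The other genes of the pathway were described by lists of known members. Over these lists 15 genes were higher and 21 were lower, and 9 were higher without control replicate 1. The shares among all genes tested, 24.1% higher and 24.5% lower, stand beside the counts of each list below. Among 7 genes for ligands of these receptors, *Il2*, *Il4*, *Il9*, *Il13* and *Il21* were at 0 in every library, and 2 were tested. *Il15* was higher, at 54, 43 and 71 counts in cKO and at 2, 8 and 25 counts in control replicates (log2 fold change 2.16, SE 0.714, adjusted p = 0.0292, edgeR). Its call was lost without cKO replicate 1 or 3 or control replicate 1 or 2, at adjusted p-values from 0.0543 to 0.0989 by edgeR. Without control replicate 3 its log2 fold change was 3.37 (adjusted p = 0.00341, edgeR), and the range with each library left out in turn was 1.64 to 3.37.

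Of 7 other receptor chains of the IL-4, IL-13 and common γ chain families, 6 were tested, 4 rose and 0 fell, with a median log2 fold change of 0.50. *Il13ra2* was at 0 in every library. *Il2ra*, the α chain of the IL-2 receptor, was measured at 35.5, 32.2 and 28.1 CPM in cKO and at 7.47, 8.09 and 9.32 CPM in control replicates. The cKO libraries were far above the others, with a 3.85-fold increase (log2 fold change 1.95, SE 0.125, adjusted p = 2.47e-06, edgeR). *Il7r*, the IL-7 receptor chain, was 1.69 ± 0.355 CPM in cKO and 0.790 ± 0.258 CPM in control (SD, n = 3; log2 fold change 1.10, adjusted p = 0.0343, edgeR). *Il13ra1*, the chain that pairs with IL-4Rα in the receptor that also binds IL-13, was 4.42 ± 0.850 and 2.59 ± 0.533 CPM (SD, n = 3; log2 fold change 0.78, adjusted p = 0.0196, edgeR). Both low genes lost their calls with libraries left out, *Il7r* without cKO replicate 1 (0.113 by edgeR), cKO replicate 2 (0.0855), control replicate 1 (0.0669) or control replicate 3 (0.0847), and *Il13ra1* without cKO replicate 2 (0.0930) or control replicate 1 (0.0702).

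Of the 8 other JAK and STAT genes, 2 rose, 5 fell and 1 was not called, and the median was −0.19. *Stat5a*, a factor activated by IL-2 family cytokines, rose at 136, 141 and 134 CPM against 85.9, 90.8 and 77.7 CPM (log2 fold change 0.69, adjusted p = 1.87e-05, edgeR), whereas its close relative *Stat5b* fell by 0.18 on the log2 scale (adjusted p = 0.0188, edgeR). *Stat4*, a factor of IL-12 signaling, and *Jak2*, a kinase of the hormone and interferon γ receptors, fell by 0.67 and 0.62 on the log2 scale (adjusted p = 0.000589 and 3.89e-05, edgeR). With *Jak1* and *Jak3*, *Tyk2* and *Jak2*, the 4 JAK genes were each lower in cKO.

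Of 14 other SOCS, PIAS and phosphatase genes, 3 rose, 6 fell and 5 were not called, and the median was −0.08. *Socs2*, a SOCS gene known for restraint of growth hormone signaling, was measured at 117, 135 and 99.8 CPM in cKO and at 67.9, 71.1 and 79.1 CPM in control replicates (log2 fold change 0.69, SE 0.102, adjusted p = 0.000323, edgeR). *Pias1*, a SUMO ligase, fell by 0.74 on the log2 scale (adjusted p = 0.000122, edgeR). *Socs6* and *Socs7* fell by 0.45 and 0.20, and *Socs4* and *Socs5* had log2 fold changes of 0.05 and 0.12 (adjusted p = 0.630 and 0.595, edgeR) and were not called. The increases were therefore in *Socs1*, *Socs2*, *Socs3* and *Cish* of the 8 genes of the SOCS family.

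Of 10 genes of the IRS and PI3K branch, which the IL-4 receptor engages beside STAT6, 3 rose, 3 fell and 4 were not called, and the median was 0.03. *Irs2*, the adaptor phosphorylated at the IL-4 receptor, was measured at 64.3, 75.2 and 91.5 CPM in cKO and at 126, 167 and 211 CPM in control replicates. The ranges did not overlap though control libraries were spread, and *Irs2* was 2.18-fold lower (log2 fold change −1.13, SE 0.173, adjusted p = 0.000409, edgeR). *Shc1*, an adaptor to the Ras pathway, fell by 0.66 on the log2 scale (adjusted p = 3.39e-05, edgeR). *Pik3cb*, a PI3K catalytic subunit, was 3.45 ± 1.05 and 1.99 ± 0.283 CPM (SD, n = 3; log2 fold change 0.79, adjusted p = 0.0342, edgeR) and lost its call with a sex term (0.0875) or without cKO replicate 1 (0.158), cKO replicate 3 (0.0543), control replicate 1 (0.0841) or control replicate 3 (0.0856).

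Of 11 other IL-4 response genes of B cells, 9 were in the table, 2 rose and 7 fell, and the median was −0.61. *Bcl2l1*, which encodes the survival protein BCL-XL, was measured at 137, 160 and 143 CPM in cKO and at 31.3, 35.1 and 35.3 CPM in control replicates. It rose 4.33-fold (log2 fold change 2.12, SE 0.0760, adjusted p = 2.67e-07, edgeR). *Nfil3*, a transcription factor gene, rose by a log2 fold change of 0.97 (adjusted p = 1.79e-05, edgeR). *Cd86*, the costimulatory ligand, was measured at 12.0, 15.8 and 13.7 CPM in cKO and at 35.3, 36.8 and 41.5 CPM in control replicates, and fell by 1.45 on the log2 scale (SE 0.117, adjusted p = 7.81e-06, edgeR). *Xbp1*, a factor of the secretory program, fell by 1.10 on the log2 scale (adjusted p = 1.94e-06, edgeR). The MHC class II genes *H2-Aa*, *H2-Ab1* and *Cd74* fell by 0.60, 0.64 and 0.61 on the log2 scale, as did *Il4i1*, by 0.30. The 5 germinal center markers summed to between 262 and 272 CPM in cKO and between 324 and 370 CPM in control. They did not move together, as 1 rose, 3 fell and 1 was not called. *Fas* rose by a log2 fold change of 0.41 (adjusted p = 0.000360, edgeR). *Mef2b* and *Bcl6* fell by 1.67 and 0.32 on the log2 scale, and *S1pr2* was not called (−0.27, adjusted p = 0.160, edgeR). The 5 plasma cell markers summed to between 527 and 649 CPM in cKO and between 568 and 583 CPM in control, mostly from *Irf4*. Of the 4 tested, *Irf4* and *Sdc1* rose, by log2 fold changes of 0.42 and 1.597, and *Jchain* and *Prdm1* fell by 4.00 and 1.13 on the log2 scale (adjusted p = 0.00282, 2.06e-05, 1.58e-06 and 0.00161, edgeR). The part of these states in the values of the IL-4 response genes was not tested.

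**Figure D4:**
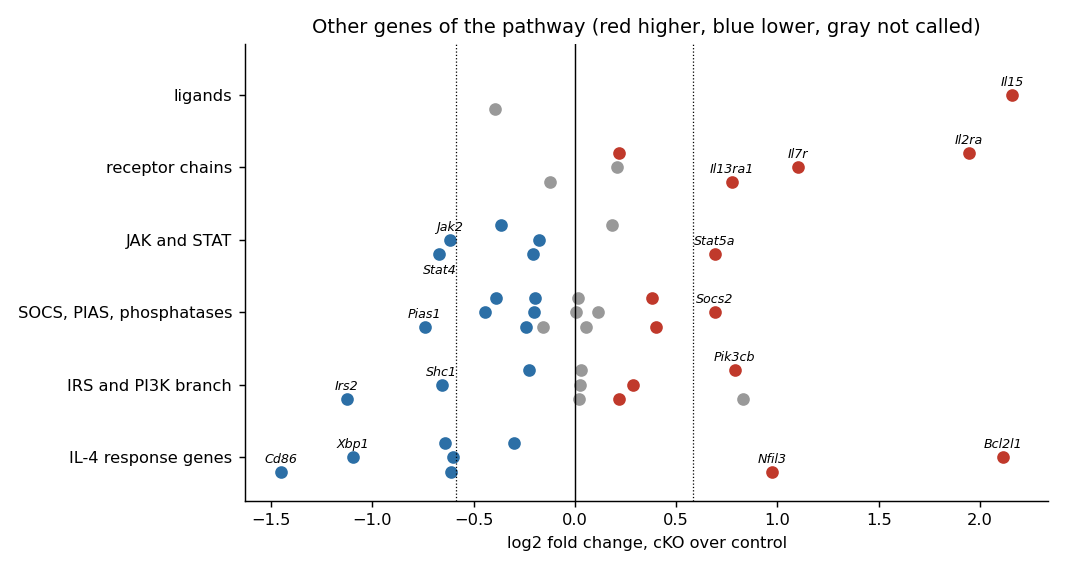
Log2 fold change of cKO over control for the tested genes of 6 lists that are reported here (points), in red where higher, blue where lower and gray where not called, with names for the genes described above. Dotted lines mark a fold change of 1.5, and the IL-4 response genes include both *Bcl2l1* at 2.12 and *Cd86* at −1.45.

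The genes whose pattern over the 6 libraries was most like that of *Socs3* were *D030028A08Rik*, *Hpdl* and *Nr4a2*, by the root mean square difference of centered log2 CPM (0.152, 0.153 and 0.197) among 13295 genes. For *Cish* they were *Bivm*, *5730488B01Rik* and *Ccdc116* (0.115, 0.13 and 0.145).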

How the data were processed

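RNA-seq of YFP+ iGCBs was analysed in 3 cKO and 3 control libraries. The authors aligned trimmed reads with HISAT2 to mm10, named in the submitters' processing notes, and quantified them with StringTie. The deposited estimated counts, for genes and for RefSeq transcripts, are whole, unnormalized numbers from the prepDE script. Tool versions, the read length setting and strand setting are not given in the sources used here. The counts are not numbers of sequenced fragments, and the floor of 3 counts covers counting error only. Kit text describes dUTP for strand-specific libraries. The labels give 3 days of culture, although their general protocol states a longer one.

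Counts were tested in R 4.3.3 with edgeR 4.0.16 (filterByExpr with a minimum count of 10, TMM, quasi-likelihood test of cKO against control without covariate, Benjamini-Hochberg adjustment over all features tested). SE is the absolute log2 fold change divided by the square root of F. Transcript use was tested with diffSpliceDGE. Alternatives were DESeq2 1.42.0, its size factors in edgeR, total counts, other filters, the replicate number, sex, and each library left out. The scripts were tested on simulated data. Members and lists were chosen with earlier results of these data known. Named genes are the members, up to 4 genes per list past adjusted p of 0.05 and 1.5-fold with the largest changes, and the 3 genes most like *Socs3* and *Cish*. *Tyk2*, *Stat5b*, *Socs4* to *Socs7*, the MHC class II genes, *Il4i1* and the markers named by symbol fall outside this rule and were chosen after their values were seen. Some genes of the lists are counted but not reported here. Promoter windows and locations are from RefSeq on GRCm38.p6, and exon lengths and overlaps from GENCODE M21. Transcripts were matched to genes by RefSeq accession, 34674 of 36026.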

Additional observations from a re-analysis of the deposited data

How the results depend on the processing

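Of 130 values of the 10 genes under 13 alternatives each, 126 kept their direction and their side of the threshold, 0 reversed, 0 lost a call, and 4, all of *Il4ra*, passed it, with adjusted p-values for *Il4ra* from 0.0126 to 0.235 over the alternatives. The median of all genes tested stayed within 0.1 of 0 on the log2 scale under every scaling. The number of higher genes in the pathway lists was 15 and lay between 9 and 14 when any 1 library was removed, the lowest being without control replicate 1. The number of lower transcripts of the 10 genes was 5 and ranged from 2 to 5, and the number of called changes in transcript use was 1 and ranged from 0 to 1. NM_009896 of *Socs1* changed sign, from −0.01 to 0.17 without cKO replicate 1 and 0.15 without control replicate 3, with a range from −0.14 to 0.17 over the libraries removed. The causes were not tested. Among 220 values of the 17 named genes of the lists, 16 lost a call, in *Il15*, *Il7r*, *Il13ra1* and *Pik3cb*, and 0 reversed. Leaving out the libraries of transcript use was added after the data had been seen.

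Libraries with the same replicate number did not deviate together throughout, with correlations between 0.009 and 0.133. With the replicate block, 6 of the 10 genes were higher and 3 lower, as without it, the pathway lists held 13 higher and 21 lower genes, and 1 of 27 named genes changed its call, *Pik3cb* (adjusted p = 0.0531 by edgeR). In all genes 3069 were higher and 3165 lower with the block. Of the cKO libraries, replicate 3 correlated best with its own number, and replicates 1 and 2 did not.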
